A study of Mus musculus with 5 samples.

Results

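Messenger RNA of 8 genes that mark club cells and other secretory cells of the airway lining was examined in whole mouse lung: Scgb1a1, Scgb3a1, Scgb3a2, Cyp2f2, Bpifa1, Bpifb1, Reg3g and Muc5b. The genes were chosen by name, and every probe set whose only annotated symbol was one of them was taken, which gave 9 probe sets of 45101. Bpifb1 had 2 probe sets and the other 7 genes had 1 each, so the set held 8 of 18194 genes with a probe set of their own. All lungs came from naive female mice, which had received no elastase. The strains were C57BL/6J, labelled C57, and 4 lines of mixed C57BL/6 and 129/Ola origin that had been backcrossed to C57BL/6J for 11 or more generations. These lines are labelled 4B(+/+) and 4B(-/-), wild type and knockout for the cyclic AMP phosphodiesterase PDE4B, and 4D(+/+) and 4D(-/-), wild type and knockout for PDE4D. Each strain was represented by 1 array of RNA mixed from 3 of 5 lungs, so the spread between animals was not measured, differences rest on single arrays, and no p-values are given.

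Club cells are the dome-shaped secretory cells of the small airways. They detoxify inhaled compounds through cytochrome P450 enzymes and coat the airway with secretoglobins, small dimeric proteins of which Scgb1a1, the club cell secretory protein, is the best known. Secretory cells of larger airways and the submucosal glands add BPI-fold proteins, antimicrobial lectins and gel-forming mucins to the airway fluid. Cyclic AMP, the messenger that PDE4 enzymes break down, is known as a signal for airway fluid and mucus secretion.

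All 8 genes passed the expression floor, an intensity of 64 on at least 1 array, which 11500 of the 18194 genes did. The intensity of a probe set is on a linear scale, and it depends on the probes as well as on the RNA, so differences are given within a probe set. Array medians ran from 45.4 to 46.6. Over these 11500 genes, which are not independent replicates, Pearson coefficients between arrays ran from 0.976 to 0.991 on the log2 scale. The 3 Pde4b probe sets over the floor read 457, 397 and 164 in 4B(-/-), against 438 to 558, 461 to 490 and 199 to 258 on the other 4 arrays. For Pde4d, 1 probe set passed the floor, with 386 in 4D(-/-) and 456 to 523 elsewhere. The labels do not say where the deleted parts lie relative to these probes, so the values do not check the labels.

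The 8 genes fell into 3 kinds of profile. Scgb1a1, Scgb3a2 and Cyp2f2 stayed within 1.2-fold over the 5 arrays. Scgb3a1, Bpifa1 and Reg3g were low in C57 and 4D(-/-) and higher on the other 3 arrays, by up to 1.79-fold between the lowest and the highest array. Muc5b, and Bpifb1 less plainly, read highest in the 4D lines. In 4 of the 8 genes, Scgb3a1, Bpifb1, Reg3g and Muc5b, the highest array lay at least 1.5-fold over the lowest, which was so for 13.8% of all genes over the floor. Without the 4D(-/-) array the number was 2, Reg3g and Muc5b, against 10.1% of all genes.

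**Figure D1:**
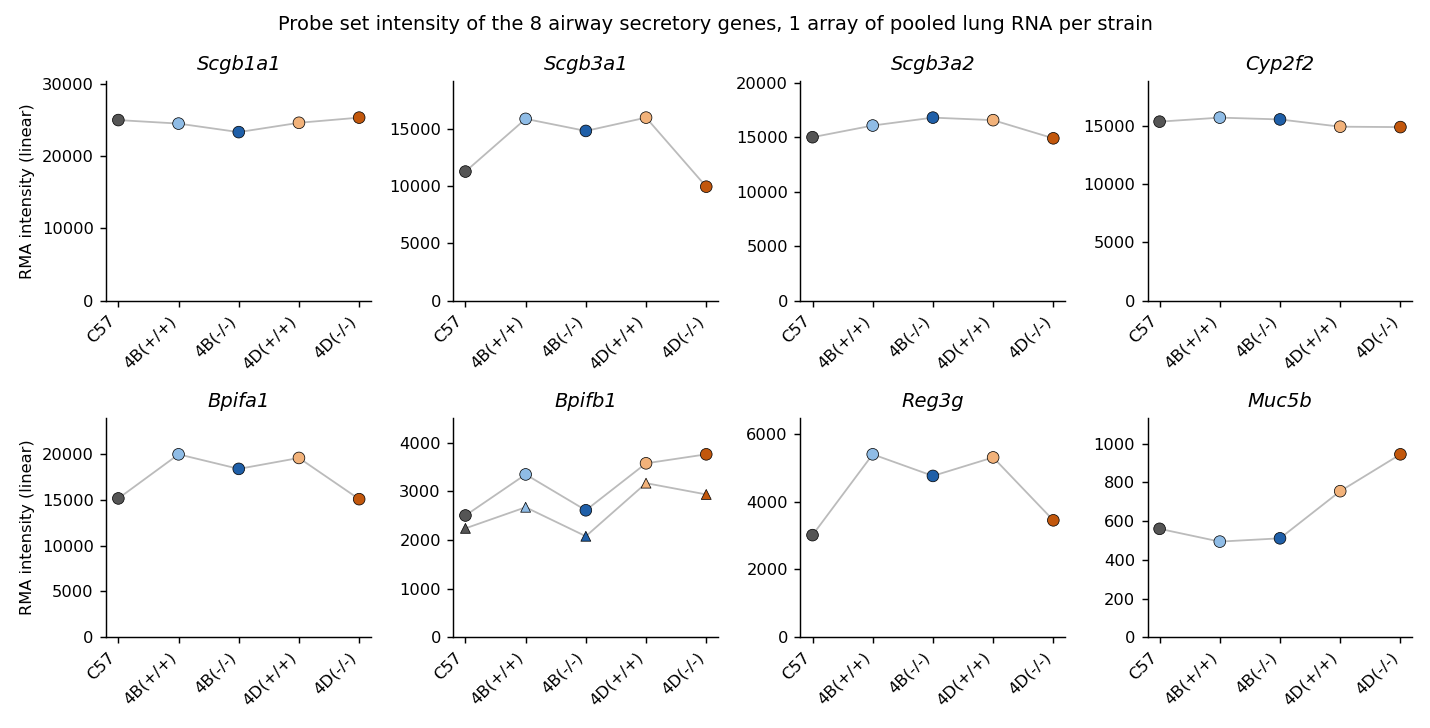
RMA intensity (linear scale from 0) of each probe set of the 8 genes on the 5 arrays, 1 point per array, with triangles for the second Bpifb1 probe set. Lines only guide the eye, since strains have no order. Scgb1a1, Scgb3a2 and Cyp2f2 are level, Scgb3a1, Bpifa1 and Reg3g dip in C57 and 4D(-/-), and Muc5b is highest in 4D(-/-) at 946.

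Scgb1a1, Scgb3a2 and Cyp2f2 had the smallest ranges of the 8 genes, and all lay among the 38 brightest of the 45101 probe sets on every array. Signals at the top of the scale are compressed when probes near saturation, and saturation flags were not used here, so differences in these 3 genes could be larger than their intensities show. Scgb1a1 read 24948 in C57, 24461 in 4B(+/+), 23282 in 4B(-/-), 24573 in 4D(+/+) and 25287 in 4D(-/-). The highest array was 1.09-fold over the lowest, and in 4B(-/-) it stood 1.05-fold under the lowest wild-type array. This probe set was the brightest or second brightest of all 45101 on every array.

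Scgb3a2, a secretoglobin of small-airway secretory cells, read 14986 in C57, 16056 in 4B(+/+), 16781 in 4B(-/-), 16548 in 4D(+/+) and 14883 in 4D(-/-). C57 and 4D(-/-) were again the 2 lowest arrays, but the whole range was 1.13-fold. Cyp2f2 encodes the club cell cytochrome P450 that activates naphthalene, the classic club cell toxicant. It read 15375 in C57, 15723 in 4B(+/+), 15567 in 4B(-/-), 14943 in 4D(+/+) and 14908 in 4D(-/-), a range of 1.05-fold. In both knockout comparisons Cyp2f2 lay within 1.01-fold of the wild-type line.

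Scgb3a1, a secretoglobin that is prominent in the secretory cells of larger airways, differed more. It read 11249 in C57, 15843 in 4B(+/+), 14792 in 4B(-/-), 15952 in 4D(+/+) and 9930 in 4D(-/-). The 4D(-/-) array was the lowest, 1.61-fold under 4D(+/+) and 1.13-fold under C57, the lowest wild-type array. C57 itself lay 1.41-fold under 4B(+/+) and 1.42-fold under 4D(+/+), so the wild-type arrays spanned 0.50 on the log2 scale, against 0.68 between 4D(+/+) and 4D(-/-).

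Reg3g, a secreted lectin that kills Gram-positive bacteria, read 3012 in C57, 5396 in 4B(+/+), 4759 in 4B(-/-), 5304 in 4D(+/+) and 3449 in 4D(-/-). Its largest difference was between wild-type strains, where 4B(+/+) exceeded C57 by 1.79-fold, and 1.51% of all genes differed as much in that comparison. The 4D(-/-) array was 1.54-fold under 4D(+/+) but 1.15-fold over C57. Thus 4D(-/-) lay within the range of the 3 wild-type arrays.

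Bpifa1 encodes SPLUNC1, an abundant airway surface protein that restrains the epithelial sodium channel and bacterial growth. It read 15155 in C57, 19970 in 4B(+/+), 18381 in 4B(-/-), 19574 in 4D(+/+) and 15075 in 4D(-/-). The 4D(-/-) array was 1.30-fold under 4D(+/+) and 1.01-fold under C57. At these intensities, among the 33 brightest probe sets on every array, the same limit applies.

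In Scgb3a1, Bpifa1 and Reg3g the higher of C57 and 4D(-/-) lay under the lowest of the other 3 arrays by 1.31-fold, 1.21-fold and 1.38-fold. Such a gap of at least 1.2-fold was present in 3 of the 8 genes and in 2.77% of all genes over the floor. With any gap it was present in 4, Scgb3a2 being the fourth, and in 22.4% of all genes. The pattern was chosen for description after its values were seen and cuts across genotype, since it joins a wild-type strain with a knockout and sets both against another knockout. In bulk tissue, fewer cells of a type and less RNA per cell cannot be told apart.

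The 3' to 5' signal ratio of the Gapdh control probe sets, a sign of RNA integrity and labelling, moved with this pattern. It was 1.72 in C57 and 1.77 in 4D(-/-), against 1.37 in 4B(+/+), 1.57 in 4B(-/-) and 1.31 in 4D(+/+). The beta-actin ratio was also highest in C57 and 4D(-/-), at 1.88 and 1.86, but it was 1.83 in 4D(+/+). Its part in the result was not tested. Genes of fat showed the gap as well, at 1.2-fold or more in 5 of 5 adipose genes over the floor (2.77% of all genes). Their summed intensity was 3898 in C57 and 3260 in 4D(-/-) against 7844 to 12123 on the other arrays. Adipoq, the fat hormone adiponectin, read 615 in C57 and 468 in 4D(-/-) and at least 1689 elsewhere. Of 5 neutrophil genes over the floor, 4 were below the other arrays in C57 and 4D(-/-) (22.4% of all genes). S100a8 and S100a9 were so by at least 1.2-fold (2.77% of all genes). The gaps of Ltf and Mmp9 were 1.04-fold and 1.05-fold, and Csf3r was level at 114 to 117. Their sums were 5286 in C57 and 5565 in 4D(-/-), and 7074 to 11301 elsewhere. Ltf, which glands also make, was the largest part of the sums, at 3038 in C57 and 3471 in 4D(-/-). The part of neutrophils, of tissue beside the airways, or of how much large airway each sample held, was not tested.

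The bases upstream of Scgb3a1, Bpifa1 and Reg3g are shown because these 3 genes shared a profile, and those of Cyp2f2 and Bpifb1 are shown because they did not. RefSeq's promoter table for build GRCm38.p6 held 6 windows for 5 of the 8 genes, 2 of them for Bpifb1, of which the first is shown. Each run is the 250 bases before the annotated start, read 5' to 3' on the gene's strand. Capitals mark matches to TGACG, a short form of the cyclic AMP response element, to the forkhead motif TGTTTNC, to CTCAAG, the core bound by the lung epithelial factor NKX2-1, to the C/EBP motif TTNNGNAA, all on both strands, or to TATAAA on the gene's own strand.
Scgb3a1, chr11:49663345-49663594, plus strand: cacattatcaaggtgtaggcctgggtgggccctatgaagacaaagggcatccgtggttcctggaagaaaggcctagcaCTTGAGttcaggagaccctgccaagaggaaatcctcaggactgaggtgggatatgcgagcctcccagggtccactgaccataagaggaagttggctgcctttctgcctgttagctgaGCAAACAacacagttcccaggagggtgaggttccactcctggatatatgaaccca
Bpifa1, chr2:154142630-154142879, plus strand: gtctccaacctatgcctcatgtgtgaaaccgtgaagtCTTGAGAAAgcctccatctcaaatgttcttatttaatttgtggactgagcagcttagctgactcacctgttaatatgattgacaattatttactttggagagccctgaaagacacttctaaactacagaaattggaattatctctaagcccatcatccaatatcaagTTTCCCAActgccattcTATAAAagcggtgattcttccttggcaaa
Reg3g, chr6:78468875-78469124, minus strand: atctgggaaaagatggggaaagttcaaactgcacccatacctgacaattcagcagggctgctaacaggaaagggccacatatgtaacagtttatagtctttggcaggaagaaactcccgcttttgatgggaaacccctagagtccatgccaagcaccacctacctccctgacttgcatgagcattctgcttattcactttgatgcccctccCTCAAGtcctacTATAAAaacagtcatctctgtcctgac
Cyp2f2, chr7:27119705-27119954, plus strand: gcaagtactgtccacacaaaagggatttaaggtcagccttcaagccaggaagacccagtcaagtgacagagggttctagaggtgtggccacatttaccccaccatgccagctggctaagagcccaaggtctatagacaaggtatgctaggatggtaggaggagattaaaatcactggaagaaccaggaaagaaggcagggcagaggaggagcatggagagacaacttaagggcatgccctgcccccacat
Bpifb1, chr2:154190568-154190817, plus strand: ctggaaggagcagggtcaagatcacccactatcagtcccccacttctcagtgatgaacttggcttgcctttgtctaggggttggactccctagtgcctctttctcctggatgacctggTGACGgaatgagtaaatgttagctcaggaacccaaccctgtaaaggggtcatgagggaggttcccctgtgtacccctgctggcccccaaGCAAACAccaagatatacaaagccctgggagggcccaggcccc

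CTCAAG or its reverse complement occurred once in each of the Scgb3a1, Bpifa1 and Reg3g windows, starting 172, 213 and 39 bases before the start. It occurred in neither Cyp2f2 nor the Bpifb1 windows, and in 13.3% of all 32851 promoter windows of this length. TGACG occurred only in the shown Bpifb1 window, 132 bases before the start, and in 17.8% of all windows. TATAAA stood 29 and 27 bases before the starts of Bpifa1 and Reg3g and in 7.59% of all windows. The forkhead motif matched in Scgb3a1 and in the shown Bpifb1 window, and in 17.8% of all windows. TTNNGNAA matched in Bpifa1 alone, at 2 places, where the first match overlaps the CTCAAG match, and in 36.8% of all windows. These matches describe letters in short windows and not sites of binding. The motifs were picked with the profiles known.

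Bpifb1 and Muc5b had a profile of their own. Bpifb1 encodes the long BPI-fold protein LPLUNC1 of goblet cells and glands, and lies next to Bpifa1 on chromosome 2 with only Bpifa5 between them. Its brighter probe set read 2506 in C57, 3351 in 4B(+/+), 2613 in 4B(-/-), 3579 in 4D(+/+) and 3764 in 4D(-/-). The other probe set read 2241, 2675, 2078, 3171 and 2939 in the same order of arrays. Both put the 4D lines above the 4B lines' knockout and C57, and both gave 4B(-/-) below 4B(+/+), by 1.28-fold and 1.29-fold. They disagreed on the PDE4D knockout, which was 1.05-fold over 4D(+/+) in the brighter and 1.08-fold under it in the other. The brighter one carries the suffix that the array's maker gives to probe sets whose probes can match other transcripts. Thus 4D(-/-) was the highest array for this probe set of Bpifb1 and the lowest for its neighbour Bpifa1.

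Muc5b, the gel-forming mucin that mucociliary clearance of the mouse airway depends on, read 560 in C57, 494 in 4B(+/+), 511 in 4B(-/-), 755 in 4D(+/+) and 946 in 4D(-/-). The 4D(-/-) array was 1.25-fold over the highest wild-type array, 4D(+/+), and 1.69-fold over C57. The 4D(+/+) array in turn was 1.53-fold over 4B(+/+), so wild-type arrays differed in Muc5b as well. With 1 array per strain, line and array cannot be told apart. Between the knockouts Muc5b was 1.85-fold higher in 4D(-/-) than in 4B(-/-), and 1.31% of all genes differed as much there.

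Of the comparisons the design implies, the first set each knockout beside its matching wild-type line. In 4B(-/-) against 4B(+/+), 0 of the 8 genes were higher by at least 1.5-fold, as were 0.383% of all genes, and 0 were lower, as were 0.930%. The median log2 difference of the 8 genes was -0.09 and that of all genes 0.01. The largest difference was the one in Bpifb1, -0.36 on the log2 scale, and 4.71% of all genes differed as much. In 4D(-/-) against 4D(+/+), 0 genes were higher (1.10% of all genes) and 2 were lower (4.53% of all genes), Scgb3a1 and Reg3g, with a median of -0.08 against 0.00 for all genes. When all 3 wild-type arrays were averaged in place of 4D(+/+), neither was past 1.5-fold, at -0.51 and -0.36, and Muc5b was instead, at 0.67. With that reference 1.69% of all genes were past 1.5-fold in either direction.

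The second set of comparisons placed the other strains beside C57, which the series' design text takes as its reference. These comparisons share the C57 array. Reg3g was past 1.5-fold in 3 of the 4, at 1.79-fold in 4B(+/+), 1.76-fold in 4D(+/+) and 1.58-fold in 4B(-/-), and it was the only gene of the 8 past it there. All were higher than C57, as were 2.23%, 4.25% and 2.53% of all genes, and 0 genes of the 8 were lower, as were 1.33%, 1.24% and 3.57%. In 4D(-/-), Muc5b at 1.69-fold and Bpifb1 at a log2 difference of 0.59, just past the threshold, were higher (1.37% of all genes) and 0 lower (0.791%). The second Bpifb1 probe set was 1.31-fold higher, short of the threshold. The median log2 differences of the 8 genes from C57 were 0.25 in 4B(+/+), 0.40 in 4D(+/+), 0.11 in 4B(-/-) and 0.01 in 4D(-/-), with all-gene medians between -0.02 and 0.01.

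**Figure D2:**
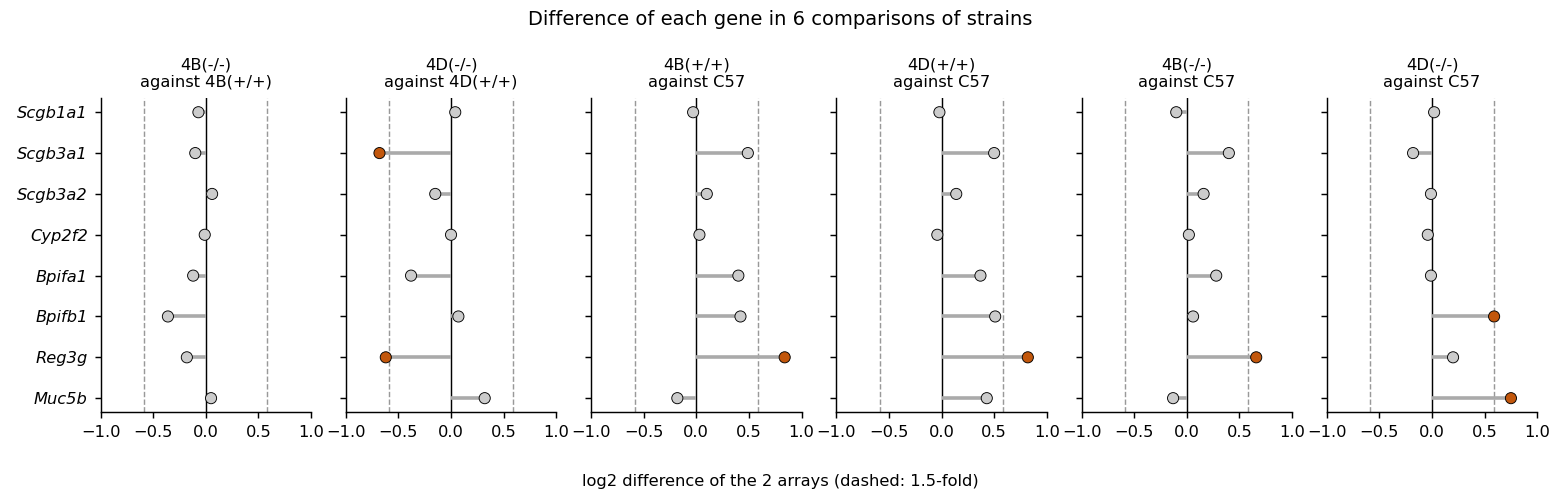
Log2 difference between 2 arrays (horizontal axis) of each of the 8 genes in 6 comparisons, with dashed lines at 1.5-fold and filled orange points past it. Scgb3a1 and Reg3g are past 1.5-fold and lower in 4D(-/-) against 4D(+/+), while Reg3g is higher than C57 in 4B(+/+), 4D(+/+) and 4B(-/-).

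The C57 array also differed from the others in clock genes, which follow the time of day at which tissue is taken. Among 15 such genes, 10 lay below C57 by 1.5-fold in 4B(+/+), 9 in 4D(+/+), 9 in 4B(-/-) and 8 in 4D(-/-), and 2 were higher in each. Of all genes, 1.33%, 1.24%, 3.57% and 0.791% were lower in that order, and 2.23%, 4.25%, 2.53% and 1.37% higher. The part of the time of day in the differences of the 8 genes from C57 was not tested.

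At 2-fold, 0 of the 8 genes were past the threshold in any of these 6 comparisons. Of all genes, 0.409% were past it in 4B(-/-) against 4B(+/+) and 1.72% in 4D(-/-) against 4D(+/+). Against C57 the share was 1.04% in 4B(+/+), 2.01% in 4D(+/+), 1.34% in 4B(-/-) and 0.539% in 4D(-/-). The design text seeks genes alike in C57 and 4D(+/+) and different in the other 3 strains. Taken as within 1.2-fold and at least 1.5-fold the same way, 0 of the 8 genes met it: Scgb1a1, Scgb3a2 and Cyp2f2 were alike in C57 and 4D(+/+) but did not reach 1.5-fold elsewhere.

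Other genes of airway secretory cells held both level and variable genes. Of 48 listed genes 45 had a probe set of their own and 42 passed the floor. In 4D(-/-) against 4D(+/+), 2 of the 42 were higher and 8 lower by 1.5-fold (1.10% and 4.53% of all genes). In 4B(-/-) against 4B(+/+) 0 were higher and 4 lower (0.383% and 0.930% of all genes). The medians were 0.00 and 0.04. Itln1, among the lower genes of both comparisons, passed the floor only in 4B(+/+), at 75.9. Chil4, among the higher genes of 4D(-/-), passed it only there, at 65.2. The floor thus selected each on an array where it was high. Against C57, 10 were higher and 3 lower in 4B(+/+) (2.23% and 1.33% of all genes), and 10 and 2 in 4D(+/+) (4.25% and 1.24%). The medians there were 0.03 and 0.02. Enzymes on this list differed in how much they varied. Cbr2, a carbonyl reductase, ranged over 1.17-fold, the aldehyde dehydrogenases Aldh1a1 and Aldh1a7 over 1.08-fold and 1.17-fold, Cyp4b1 over 1.15-fold and Cyp2b10 over 1.23-fold. The glutathione transferase Gsto1 ranged over 1.70-fold, the flavin monooxygenase Fmo2 over 1.68-fold, the paraoxonase Pon1 over 1.43-fold, the glutathione transferase Gsta3 over 1.39-fold and Selenbp1 over 1.33-fold. Fmo2 read 5589 in C57 and 3332 to 4202 elsewhere, while Gsta3 read 1091 in 4D(-/-) and 1443 to 1515 elsewhere.

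The gap that put C57 and 4D(-/-) below the other 3 arrays was present at 1.2-fold or more in 7 of these 42 genes (2.77% of all genes). The 7 were Lypd2, Pigr, Agr2, Agr3, Gsto1, Krt15 and Itln1. Itln1 passed the floor only in 4B(+/+), at 75.9, an array on the high side of the gap, so its count is no separate result. Lypd2 read 1056 in C57, 1661 in 4B(+/+), 2014 in 4B(-/-), 1833 in 4D(+/+) and 933 in 4D(-/-), and its gap was 1.57-fold. Pigr, the receptor that carries IgA into the airway fluid, read 1054, 1721, 1334, 1440 and 1008 in that order. Agr2, a disulfide isomerase needed for mucin folding, was lowest in C57 at 137 and highest in 4D(+/+) at 552, and was 3.37-fold lower in 4D(-/-) than in 4D(+/+). Krt15, a keratin of basal cells, was 2.75-fold lower in that comparison. Trp63, the transcription factor that defines basal cells of large airways, showed the gap too but read only 41.7 to 73.4, close to the floor. It passed the floor only in 4B(+/+) and 4D(+/+), arrays on the high side of the gap.

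The list for submucosal gland serous cells had 11 genes over the floor, some of them also on the secretory list or among the 8 genes. Lyz2 is on an alveolar list too, so the list does not mark these cells alone. Of the 11 genes, 5 were lower by 1.5-fold in 4B(-/-) than in 4B(+/+) and 0 higher (0.930% and 0.383% of all genes). Dmbt1, a scavenger receptor secreted into mucus, read 78.4 in 4B(-/-) and 1172 to 2967 elsewhere. The trefoil peptide Tff2 read 305 in 4B(-/-), 554 in C57, 1335 in 4B(+/+), 1324 in 4D(-/-) and 4253 in 4D(+/+). The iron-binding protein Ltf, also a neutrophil product, was 1.98-fold lower in 4B(-/-) than in 4B(+/+). The gland product Wfdc18 was 8.08-fold lower and Dcpp3, whose probe set can match near-identical copies, 7.56-fold lower. Markers of other cells moved with them. Of 10 listed neuroendocrine genes 4 passed the floor, and 4 of these 4 were lower by 1.5-fold. Chga was 16.1-fold and Scg2 5.89-fold lower, with summed intensities of 238 in 4B(-/-) and 1569 in 4B(+/+). Scg5 read 21.9 and 41.8 on these arrays, under the floor on both, and Scg2 read 15.9 in 4B(-/-). Of 12 skeletal muscle genes 11 were lower, Myh4 by 6.81-fold, and 1 was higher, Myh2 at 197 against 119. The part of neuroendocrine cells and of muscle in the gland gene differences was not tested. In 4D(-/-) against 4D(+/+), 5 of the 11 gland genes and 4 of the 4 neuroendocrine genes were lower by 1.5-fold as well (4.53% of all genes). Scg5 passed the floor only in 4D(+/+), at 87.9, so the floor itself selected it on the high side of this comparison. Scg2 read 28.7 in 4D(-/-), under the floor. Bpifa1, Bpifb1 and Muc5b are the 3 genes of the set that glands also make. They were within 1.29-fold in 4B(-/-) against 4B(+/+) and within 1.30-fold in 4D(-/-) against 4D(+/+).

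**Figure D3:**
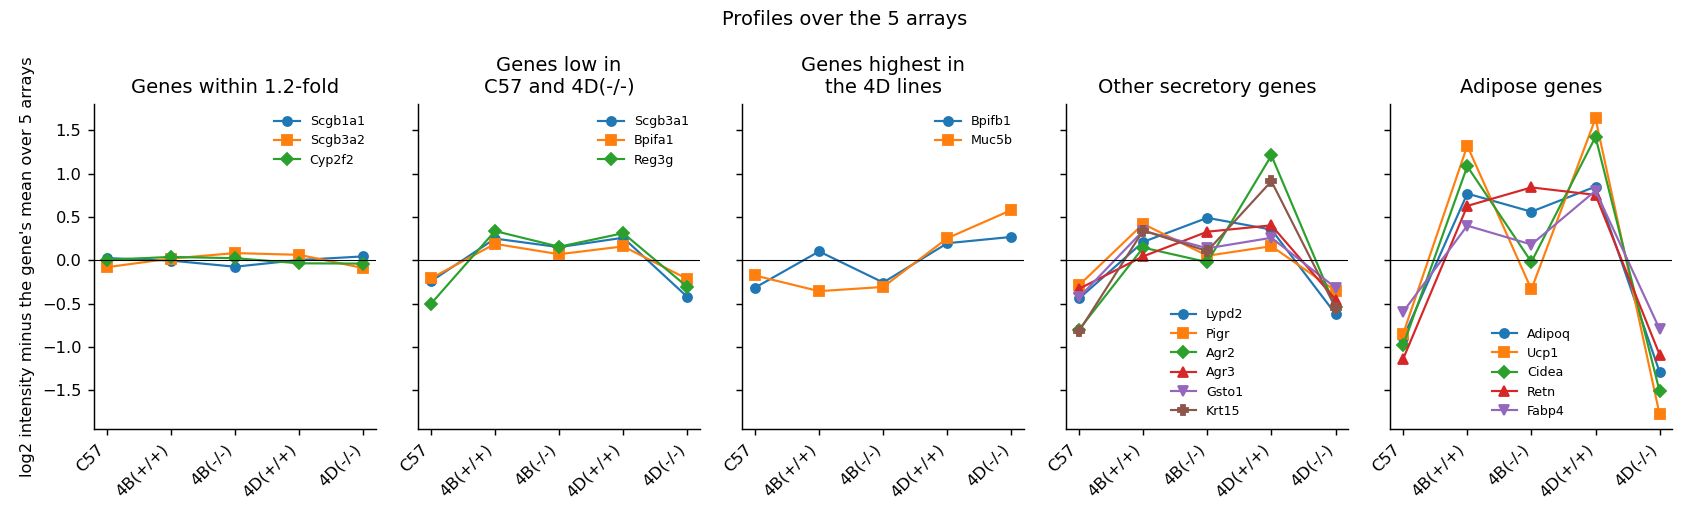
Log2 intensity minus each gene's mean over the 5 arrays (vertical axis) by strain, for the 8 genes in 3 groups, 6 other secretory genes and 5 adipose genes. Scgb3a1, Bpifa1 and Reg3g lie below their mean in C57 and 4D(-/-), as do the 6 genes of the fourth panel and the adipose genes, whose spread is wider. The 6 genes come from the 7 of 42 secretory genes that showed the gap of at least 1.2-fold. They were drawn for that gap, so their likeness to the 3 genes is no separate result.

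Close relatives of the 8 genes were mostly not expressed over the floor. Of 29 listed secretoglobins, BPI-fold, Reg and gel-mucin genes, 19 had a probe set of their own and 3 passed the floor: the lipid transfer proteins Lbp and Pltp, and Bpifb5. They held 0 genes past 1.5-fold in each of the 6 comparisons. Reg3a, Reg3b and Reg3d lay at 33.0 or less on every array, and Muc5ac, the neighbour of Muc5b on chromosome 7 and the inducible mucin of goblet cells, between 50.7 and 52.8. Of 25 transcription factors of airway epithelium over the floor, Trp63 was the only one past 1.5-fold, lower in 4D(-/-) than in 4D(+/+) and higher than C57 in 4B(+/+) and 4D(+/+). Foxa1 and Foxa2, forkhead factors of airway epithelium, ranged over 1.17-fold and 1.26-fold, and Creb1, the factor activated by cyclic AMP signalling, over 1.12-fold. Nkx2-1, and Spdef of goblet cells, were under the floor on every array, at up to 34.4 and 61.4. Since intensity depends on the probes as well, such values do not show that a gene is not expressed.

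Among other cells of the airway lining, 11 of 14 ciliated-cell genes were lower in C57 and 4D(-/-) than on the other arrays, where 22.4% of all genes were, but only Mlf1 and Spag6l by 1.2-fold. Their median was -0.29 in 4D(-/-) against 4D(+/+), with 1 of 14 lower by 1.5-fold, and 0.14 in 4B(-/-) against 4B(+/+), with 0 past it. Alveolar genes did not show the gap, in 0 of 12 type 2 genes and 0 of 10 type 1 genes, and their medians in 4D(-/-) against 4D(+/+) were 0.18 and 0.22. Of 7 basal and squamous genes, 2 showed it, Trp63 and Krt15, the latter counted among secretory genes too. Skeletal muscle genes, which do not belong to lung, were highest in 4D(+/+), with a summed intensity of 37532 against 4424 to 9654 elsewhere. Of 12 such genes 12 were lower by 1.5-fold in 4D(-/-) than in 4D(+/+) (4.53% of all genes). The part of muscle in the Scgb3a1 and Reg3g differences of that comparison was not tested.

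**Figure D4:**
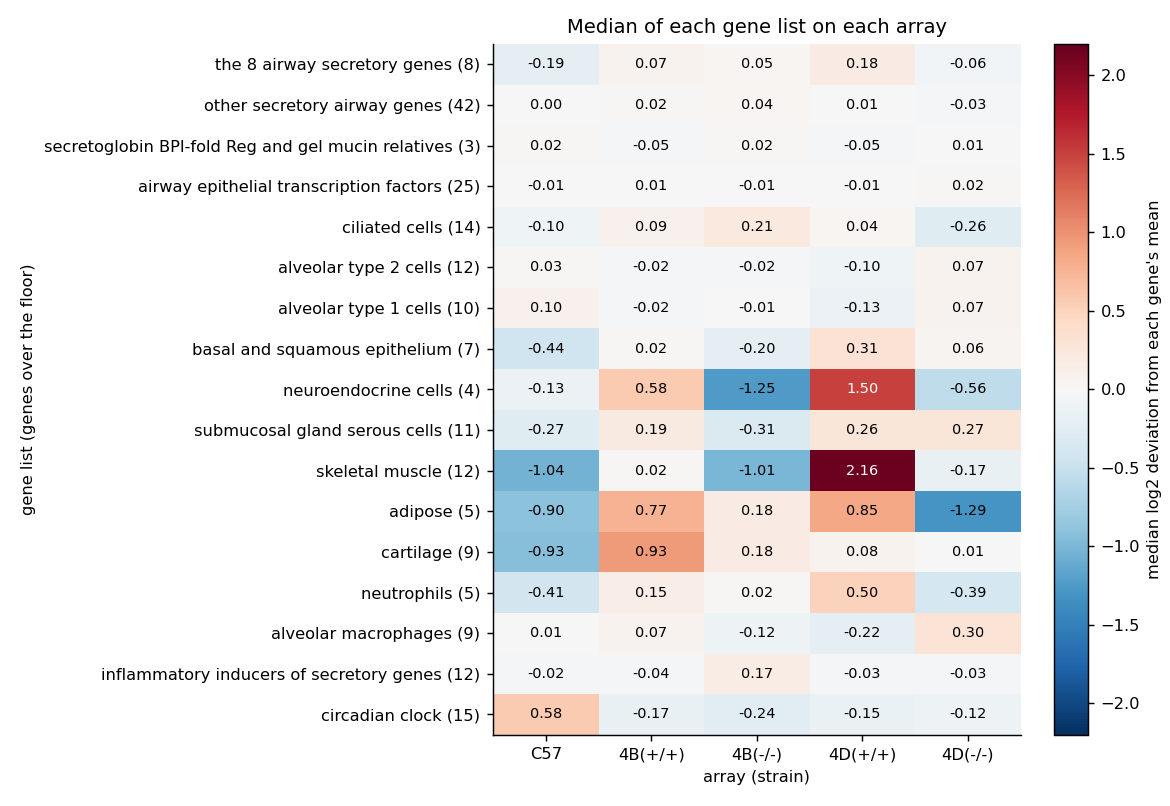
Median log2 deviation from each gene's own mean (colour and printed value) for 17 gene lists (rows, with the number of genes over the floor) on the 5 arrays (columns). The 8 genes stand at -0.19 in C57 and 0.18 in 4D(+/+), the ciliated list at -0.26 in 4D(-/-), and the skeletal muscle and neuroendocrine lists spread most.

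For the 4 genes that varied by at least 1.5-fold, the profile over the 5 arrays was set against 1582 other genes that varied as much. The closest to Scgb3a1 were Adipoq, the interferon gene Ifi27 and the epoxide hydrolase Ephx2, with Pearson coefficients of 0.997, 0.993 and 0.992 over 5 arrays. The closest to Reg3g were S100b, the glutathione transferase Gsto1 and Tmc5, at 0.998, 0.996 and 0.994. For Bpifb1 they were the heat shock genes Hspa1b and Dnajb1, at 0.904 and 0.903, and LOC102631979 at 0.894. For Muc5b they were the mitochondrial transhydrogenase Nnt, Igf1 and the goblet cell gene Clca1, at 0.917, 0.912 and 0.910. With 5 points that share one normalization, high coefficients are reached by many genes, and these are descriptions only. Among the 8 genes, Bpifa1 had a coefficient of 0.98 with both Scgb3a1 and Reg3g, and Muc5b one of -0.95 with Cyp2f2, whose own range was 1.05-fold.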

How the data were processed

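Whole-lung RNA of 5 mouse strains was hybridised to 1 expression array each, from RNA of 3 lungs mixed per strain, per the labels' protocols. On a linear scale, the values the authors deposited are 1 intensity for every probe set on each array. Per the submitters' processing notes they came from RMA, of which the sources used here give no version, settings or genome build. RMA makes array distributions alike and summarises the probes of a set, and 59.7% of probe sets held the same value on 2 or more arrays, so small differences can be set to 0. Detection flags were not used here, and precision is limited by the small number of arrays.

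Intensities were converted to log2 in Python 3.11.15 with pandas 2.3.3. The platform annotation gave 1 symbol to 34958 of 45101 probe sets, several to 932 and none to 9211. Only the first were used. For a gene with several, the one of highest mean intensity stood for it, and genes reaching log2 6 on an array were counted, at 1.5-fold. Of 263 listed symbols 236 had a probe set of their own. Genes named were the 8 genes with all probe sets, up to 4 genes past 1.5-fold per list and comparison, and the 3 closest profiles. Others, including those named for the gap pattern, and those named as level or under the floor, were chosen after their values were seen. The 8 genes and the lists were chosen with earlier results of these data known. Alternatives were the fold, the floor, the median of probe sets, cyclic loess and quantile normalization with limma 3.58.1, centring, and the reference. Counting was first tested on simulated arrays with known changes. Promoters and gene order came from RefSeq for GRCm38.p6.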

Additional observations from a re-analysis of the deposited data

Results flagged for a closer look

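With 1 array per group, no group was large enough to look for a sample far from the others. Some genes of the set had differences of opposite sign in the 2 lines, and these contrasts between lines were not tested. In the knockout comparisons the log2 difference was -0.07 in the 4B line and 0.04 in the 4D line for Scgb1a1, 0.06 and -0.15 for Scgb3a2, and -0.36 and 0.07 for Bpifb1. The second Bpifb1 probe set gave -0.36 and -0.11, so its sign was the same in both lines. Between the wild-type lines and C57, Cyp2f2 had 0.03 in 4B(+/+) and -0.04 in 4D(+/+), and Muc5b had -0.18 and 0.43. None of these differences reached 1.5-fold.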

How the results depend on the processing

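No paired analysis was possible because each strain had 1 array and the labels give no replicate numbers. At 2-fold, 0 of the 8 genes were past the threshold in each of the 6 comparisons. Centring the arrays on the median left 1 gene, Scgb3a1, past 1.5-fold in 4D(-/-) against 4D(+/+), since Reg3g then stood at -0.57, and 5.38% of all genes were past it. With all 3 wild-type arrays averaged as reference there was also 1 gene, Muc5b, higher, with 1.69% of all genes past it. The median of the probe sets left 1 gene, Muc5b, past it in 4D(-/-) against C57, with 2.07% of all genes. Other floors, cyclic loess and quantile normalization kept the counts of all 6 comparisons. Leaving out 1 array at a time put the number of genes with a range of 1.5-fold between 2 and 4, the lowest without 4D(-/-). Under cyclic loess 5 genes in place of 4 had C57 and 4D(-/-) below the other arrays. Centring, loess and quantile normalization moved the log2 difference of any of the 8 genes by at most 0.07, and 0 of the called differences changed sign. The leaving out of arrays and the alternatives for the gap pattern were chosen after seeing the data. Precision is limited by having 1 array per strain, and by the top of the intensity scale for Scgb1a1, Bpifa1, Scgb3a1, Scgb3a2 and Cyp2f2.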

Other observations

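Genes that can induce airway secretory products were looked at apart. Of 24 listed cytokines, receptors and acute-phase genes, 12 passed the floor. In 4D(-/-) against 4D(+/+) 2 were higher (1.10% of all genes), the alarmin Il33 at 1980 against 1189 and the siderophore-binding Lcn2 at 1161 against 692. Another 2 were lower (4.53% of all genes), the neutrophil chemokine Cxcl5 and the chemokine Ccl20. Ccl20 read 35.3 against 62.5, under the floor on both arrays. Cxcl5 read 18.7 in C57, 593 in 4B(+/+), 194 in 4B(-/-), 130 in 4D(+/+) and 53.8 in 4D(-/-). In 4B(-/-) against 4B(+/+) Cxcl5 was the only one of the 12 past 1.5-fold. The receptor subunits Il17ra and Il17rc ranged over 1.07-fold and 1.15-fold.

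Products linked to type 2 inflammation of the airway differed from each other. Retnla read 4295 in C57, 4112 in 4B(-/-) and 4254 in 4D(-/-) but 2819 in 4B(+/+) and 2884 in 4D(+/+), so it was lower in both wild-type lines. Clca1, a goblet cell protein, read 349 in 4D(-/-) and 118 to 243 elsewhere. Chil4 read 65.2 in 4D(-/-), just over the floor, and 22.1 to 27.5 on the other arrays. Not all listed genes of this kind were higher in 4D(-/-) than in 4D(+/+). Agr2 read 164 against 552, and Itln1, under the floor on both arrays, 26.9 against 61.6. Muc5ac and Retnlb, under the floor on every array, read 50.8 against 50.7 and 12.1 against 12.1.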
